A study of Mus musculus with 6 samples.

Results

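The neighbourhood described here is a stretch of mouse chromosome 1 from 72800000 to 74200000 (read as GRCm39) that holds the genes Igfbp2 and Igfbp5 at its start and Tns1 near its end. Its members are all peaks whose summit lies between these limits in the ATAC-seq peak lists of 6 libraries, 2232 of 1455940 listed peaks. Peaks were selected on the position of their summit, but the limits were set with ranks and folds of these data known. All ranks, folds and peak counts are therefore taken as used in the choice, every value is a description, and no test was run. ATAC-seq maps open chromatin by letting the Tn5 transposase insert sequencing adapters wherever DNA is accessible. The cells were ATDC5, an established line of mouse chondrocyte precursors derived from a teratocarcinoma, and per the labels all libraries came from this 1 line, with no genetic change named. Cells were spotted as dense droplets and collected at day 0 (Day0, labelled control) or after 3 or 10 days (Day3 and Day10, labelled differentiation) in medium to which ascorbate-2-phosphate and beta-glycerophosphate had been added. Each day had 2 libraries, which the labels call independent biological replicates, and 2 against 2 libraries allow no two-sided exact p below 0.33.

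As background, Igfbp2 and Igfbp5 encode secreted proteins that bind insulin-like growth factors and thereby hold them back from, or deliver them to, their receptor. Insulin-like growth factors drive growth and maturation of chondrocytes in the growth plate, and Igfbp5 protein also binds extracellular matrix. Tns1 encodes tensin 1, which links integrins to actin filaments at cell adhesions. Distant open regions in gene-poor stretches often hold regulatory elements, but a peak list does not say which gene, if any, a region acts on.

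Gene names were taken from RefSeq's GRCm38.p6 table for their order along the chromosome only, because the lists use another build. In that order 18 genes lie between Igfbp5 and Tns1. They are 13 long noncoding RNAs, 3 pseudogenes, 1 miRNA (Mir6351) and 1 protein-coding gene, Tnp1, whose product packs DNA in maturing sperm. Pinc, a noncoding RNA first known from the mammary gland, is among the long noncoding RNAs. Past Tns1 follow Rufy4 and the chemokine receptor genes Cxcr2 and Cxcr1. In the build of the lists only approximate positions were used, 72.86 to 72.92 megabases for Igfbp2 and Igfbp5 and from about 73.95 megabases for Tns1. Regions are therefore given by position, and none is called a promoter.

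The start sequences of the named genes are shown so that the reader can see what the gene ends look like, although no peak could be placed on them. RefSeq's table (GRCm38.p6) had a promoter for all 3 genes, each running from 250 bases before the start to 50 after it. Igfbp2, on the plus strand, has 2 starts in that table, and the start with a motif match is printed. Igfbp5 and Tns1 lie on the minus strand and are printed 5′ to 3′ along the gene. Capitals mark a match to 1 of 7 motifs searched on both strands: TGANTCA (AP-1), TGTGGT (RUNX), ACAAT (SOX), GGAATG (TEAD), TTGCNNAA (C/EBP), and the longer NFI palindrome and CTCF core.
Igfbp2: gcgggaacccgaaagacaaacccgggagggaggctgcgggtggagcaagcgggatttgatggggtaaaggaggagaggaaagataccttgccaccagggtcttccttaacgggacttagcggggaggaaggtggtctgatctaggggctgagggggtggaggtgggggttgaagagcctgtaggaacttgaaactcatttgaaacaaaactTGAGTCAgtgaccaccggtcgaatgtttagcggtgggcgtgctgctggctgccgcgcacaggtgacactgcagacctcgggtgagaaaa
Igfbp5: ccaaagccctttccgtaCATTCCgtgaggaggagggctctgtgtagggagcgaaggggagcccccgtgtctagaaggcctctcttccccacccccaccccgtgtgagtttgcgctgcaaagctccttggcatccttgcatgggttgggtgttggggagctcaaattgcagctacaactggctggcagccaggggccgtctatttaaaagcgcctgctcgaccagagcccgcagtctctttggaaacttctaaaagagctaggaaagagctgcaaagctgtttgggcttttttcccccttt
Tns1: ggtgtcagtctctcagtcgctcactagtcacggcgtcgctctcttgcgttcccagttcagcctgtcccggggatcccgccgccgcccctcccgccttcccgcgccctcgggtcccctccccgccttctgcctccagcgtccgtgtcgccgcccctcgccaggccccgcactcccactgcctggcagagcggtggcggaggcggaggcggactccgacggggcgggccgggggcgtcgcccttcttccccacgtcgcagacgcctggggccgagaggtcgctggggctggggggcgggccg
The printed Igfbp2 sequence held 1 AP-1 match, a motif found in 7.81% of 32851 promoters of the same length. The Igfbp5 sequence held 1 TEAD match, found in 14.7% of them, and the Tns1 sequence held none of the 7. No match overlapped another. The other Igfbp2 start, not printed, held 0 matches and was 67% G and C. The printed sequences were 57.3% (Igfbp2), 56.3% (Igfbp5) and 75.7% (Tns1) G and C, against a median of 52.7% over all promoters. A match describes letters and not a bound site.

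The number of listed peaks in the neighbourhood was higher on each later day. It was 215 and 218 in the Day0 lists, 273 and 279 in those of Day3, and 614 and 633 in those of Day10, so the days did not overlap. These peaks covered 70805 and 71764 bases on Day0, 94964 and 93807 on Day3, and 198651 and 208932 on Day10. On average the Day10 lists held 2.88 times as many peaks here as the Day0 lists, while the whole Day10 lists were 2.34 times as long. From Day0 to Day3 the ratios were 1.27 here and 1.08 for the whole lists.

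List length itself moves with the library, so equal numbers of peaks were compared as well. Among the 50000 strongest peaks of each library, ranked by the authors' p-value, the neighbourhood held 54 and 56 on Day0, 68 and 64 on Day3, and 108 and 107 on Day10. The mean number on Day10 was 1.95 times that on Day0. The flank of the same length before the neighbourhood held 59 and 66 on Day0 and 59 and 60 on Day10, and the flank after it held 81 and 78 on Day0 and 80 and 87 on Day10. The ratios of Day10 to Day0 were 0.952 and 1.05 in these flanks. The difference between neighbourhood and flanks was not tested.

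Several properties of the libraries moved with the day, and their part in these counts was not tested. The authors' fold at a summit is (pileup + 1) / (background + 1), where the pileup is a whole number of stacked reads and each library has 1 background. That background was 0.7165 and 0.7308 on Day0, 0.7985 and 0.7984 on Day3, and 1.0845 and 1.1515 on Day10. The smallest listed width was 87 to 90 bases on Day0 and Day3 and 68 and 72 bases on Day10. Peak names inside the lists differ by day as well. Whether the days were prepared separately is not known, so an effect of the day and of any differing preparation cannot be told apart. A rank of 50000 stood for a pileup of 28 and 29 reads on Day0, 25 and 26 on Day3, and 36 and 37 on Day10. A rank of 100000 stood for 12 reads in both Day0 libraries, 11 and 12 on Day3, and 20 and 21 on Day10. The smallest listed pileup was 5 in every library. Counting error alone gives a pileup of 28 an exact Poisson 95% interval from 18.6 to 40.5. A region that is not listed may thus still hold a few reads. The largest pileup in any Day10 list was 136 and 144 against 162 to 174 in the other lists, so the highest folds differed between days. Ranks were therefore used to call changes and folds to describe them. Where values follow each other after "then", they are those of Day0, Day3 and Day10, each with replicate 1 before replicate 2.

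**Figure D1:**
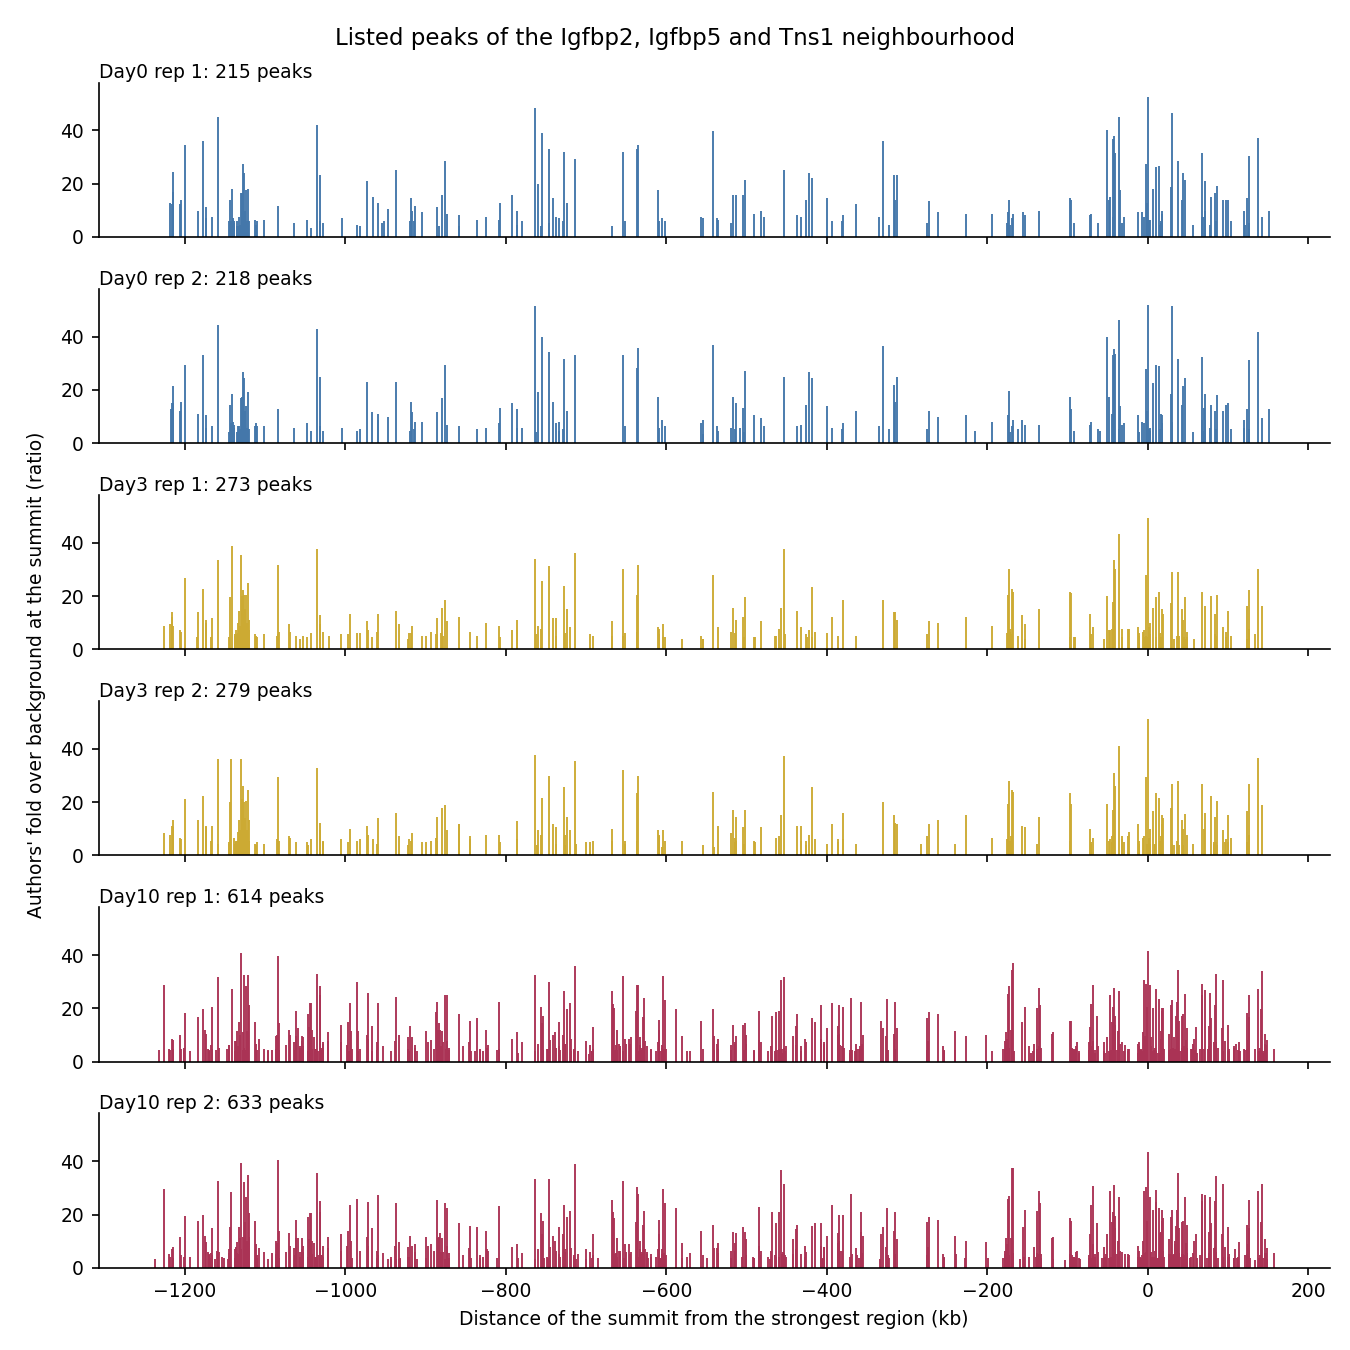
All listed peaks of the neighbourhood in each of the 6 libraries: the x axis is the distance of the summit in kb from the strongest region (74037602 to 74038102) and the height of each line is the authors' fold over background. The Day10 panels hold 614 and 633 peaks against 215 to 279 in the others, and the tallest lines stand at 0 kb in all panels.

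To follow the same places across days, windows of 501 bases were set on the summits of the 50000 strongest peaks of all libraries, genome-wide. This gave 78698 regions, of which 143 lay in the neighbourhood. To be called gained between an earlier and a later day, a region had to rank within 50000 in each later library, and past 100000 or unlisted in each earlier one. This had to hold both for peaks with their summit in the window and for any overlapping peak. Lost is the mirror image, and kept means within 50000 in all 4 libraries. Peaks with their summit in a region numbered 108 and 105 on Day0, 119 and 122 on Day3, and 136 and 135 on Day10. On Day10, 471 and 490 further peaks overlapped no region, with a median fold of 5.28 and 5.11, against 103 and 108 such peaks on Day0. Most of the additional Day10 peaks therefore did not enter the comparison of regions.

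Between Day0 and Day10, the 143 regions comprised 36 gained, 4 lost and 34 kept. Over all regions 10.7% were gained, 7.99% lost and 34.9% kept, against 25.2%, 2.8% and 23.8% in the neighbourhood. Because the neighbourhood was picked with these results known, nothing is read from the gap between its shares and those of all regions. Between Day3 and Day10, 22 were gained, 0 lost and 42 kept, where all regions gave 7.72%, 3.16% and 37.9%. Between Day0 and Day3, 2 were gained, 0 lost and 39 kept, where all regions gave 0.543%, 0.513% and 45.6%. The comparisons share libraries and are not independent of each other. The count of 2 became 4 without Day0 replicate 1, and the count of 0 lost after Day3 became 1 without Day10 replicate 2. Over all regions these counts went from 427 to 558 and from 2489 to 2975.

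Of the 69 regions called neither gained, lost nor kept between Day0 and Day10, 50 ranked better on Day10 in both libraries and 15 ranked poorer. The shares among such uncalled regions genome-wide were not computed. Counting only whether both libraries of a day ranked better than both of the other, by any overlapping peak, 102 of all 143 regions ranked better on Day10 than on Day0 and 33 ranked poorer. Over all regions the shares were 43.9% better and 41.2% poorer. Regions that shared a wide peak were each counted. For Day3 against Day0 the counts were 71 better and 31 poorer (all regions 42.3% and 31.2%), and for Day10 against Day3 they were 91 better and 35 poorer (36.1% and 48.4%). Ranks improved at each later day without overlap in 46 regions (all regions 15.0%) and worsened at each later day in 14 (all regions 19.2%). The 2 libraries of a day were close: the median absolute log2 difference of fold between them was 0.13 on Day0, 0.11 on Day3 and 0.09 on Day10 over the regions listed in both.

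**Figure D2:**
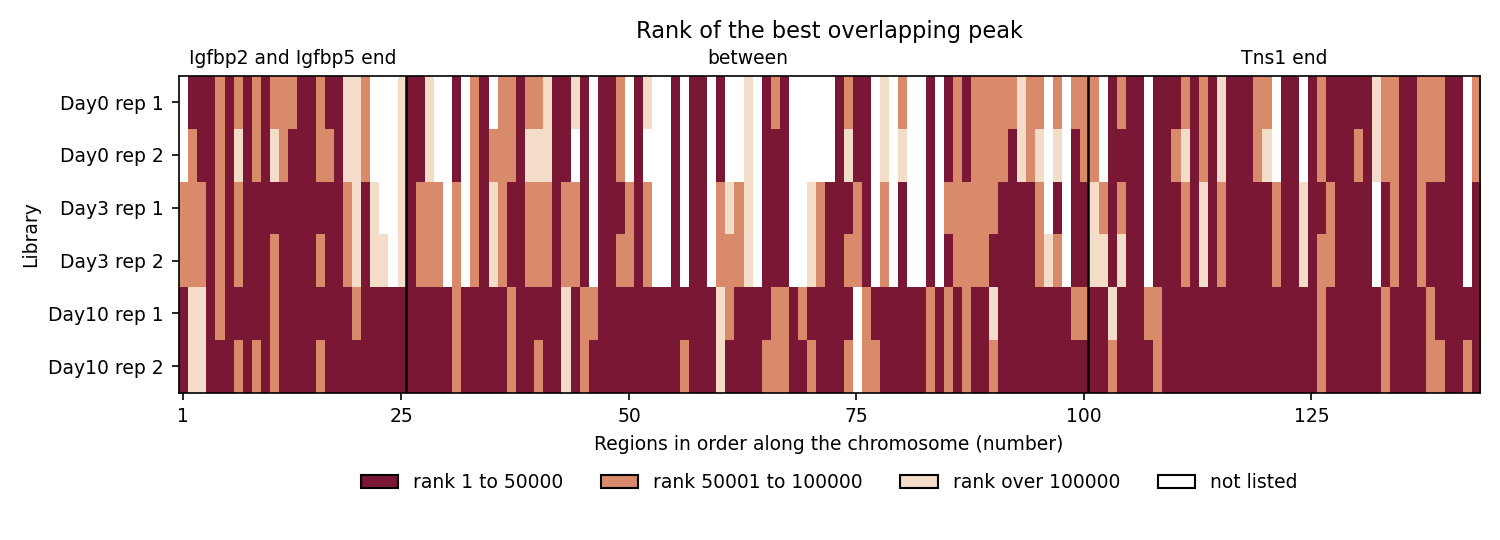
Rank class of the best overlapping peak in the 143 regions (x axis, in order along the chromosome) for each library (rows), with black lines between the stretches around Igfbp2 and Igfbp5, between the genes, and around Tns1. Both Day10 rows are dark over most regions: 103 regions ranked within 50000 in both Day10 libraries, against 52 in both Day0 libraries. In the stretch between the genes, 25 regions were not listed in Day0 replicate 1 and 1 in Day10 replicate 2. The shares over all regions were not computed, and the whole Day10 lists were 2.34 times as long as those of Day0.

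By the rule, the 36 gained regions were weak or unlisted on Day0 and within rank 50000 on Day10, which also sets the lower end of their Day10 folds. No peak was listed over 25 of them in either Day0 library (69.4%, against 69.9% of the 8449 regions gained genome-wide), and over 13 of them none was listed on Day0 or Day3 (36.1%, against 37.6% genome-wide). On Day3, 20 were out of the 100000 strongest in both libraries, 14 were intermediate and 2 were already within 50000. The genome-wide shares were 66.3%, 30.2% and 3.48%. On Day10 their folds ran from 17.8 to 34.5 in replicate 1 (median 22.3) and from 18.1 to 37.6 in replicate 2 (median 22.3), and their median pileup was 45.5 and 47 reads. The 31 regions kept on all 3 days had median folds of 27.8 and 28.8 on that day. Neighbouring gained regions lay a median of 23.7 kb apart.

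The neighbourhood was divided into the end with Igfbp2 and Igfbp5 (200 kb, up to 73 megabases), the stretch between (950 kb), and the end with Tns1 (250 kb, from 73.95 megabases). The stretch between held 75 regions, or 7.89 per 100 kb, against 12.5 at the Igfbp2 and Igfbp5 end and 17.2 at the Tns1 end. It held 25 of the gained regions (33.3% of its regions), against 6 of 25 at the Igfbp2 and Igfbp5 end and 5 of 43 at the Tns1 end (11.6%). Kept regions between Day0 and Day10 were the reverse, with 11 in the stretch between (14.7%) and 17 at the Tns1 end (39.5%). Over all regions 10.7% were gained and 34.9% kept, so the Tns1 end lay nearer to these shares than the stretch between. Gained regions that no Day0 or Day3 list held numbered 12 between the genes, 1 at the Igfbp2 and Igfbp5 end and 0 at the Tns1 end. Strong peaks in the stretch between numbered 23 and 26 on Day0, 29 and 28 on Day3, and 57 and 55 on Day10. At the Tns1 end they numbered 21 in both Day0 libraries, 25 and 24 on Day3, and 35 in both Day10 libraries. At the Igfbp2 and Igfbp5 end they numbered 10 and 9, then 14 and 12, then 16 and 17.

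**Figure D3:**
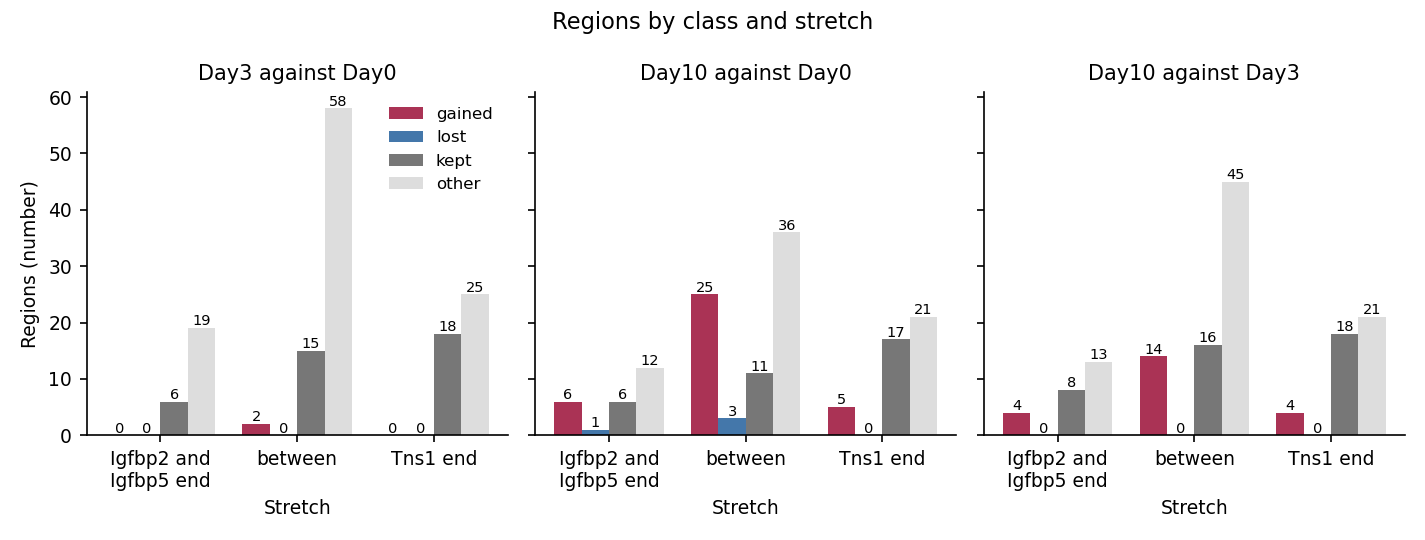
Number of regions (y axis) in each class for the 3 stretches, in the 3 comparisons of days; bars start at 0 and carry their counts. In the middle panel the stretch between the genes has 25 gained and 11 kept regions, while the Tns1 end has 5 gained and 17 kept.

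At the Igfbp2 and Igfbp5 end, all 5 regions that ranked poorer on Day10 than on Day0 were among the first 8 by position, the last of them starting at 72878554. Of the 17 regions after it, 16 ranked better on Day10 and 1 overlapped. This division was made after the values were seen. Genome-wide, 43.9% of regions ranked better and 41.2% poorer. The ranks are by any overlapping peak, and on Day10 the regions starting at 72907991, 72909284 and 72910144 shared 1 peak. The strongest kept region of this end, from 72878554 to 72879054, had folds of 44.9 and 44.5 on Day0, 33.4 and 36.1 on Day3 and 31.7 and 32.5 on Day10. Its ranks were 6199 and 7065, then 12394 and 9921, then 12853 and 12489, poorer on Day3 and Day10 than on Day0 in every library. A kept region from 72860409 to 72860909 had lower folds on each later day, 36.1 and 32.9, then 22.8 and 22.2, then 19.7 and 20.0. Its pileups, 61 and 56, then 40 and 39, then 40 and 42 reads, were not lower on Day10 than on Day3. The only lost region of this end, from 72823011 to 72823511, had folds of 24.5 and 21.4 on Day0, 8.90 and 10.6 on Day3 and 8.16 and 7.90 on Day10. Its pileups overlapped between Day3, with 15 and 18 reads, and Day10, with 16 and 16.

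Further along, within the span given for Igfbp2 and Igfbp5, separate peaks gave way to 1 wide peak on Day10. The region from 72907991 to 72908491 had folds of 16.3 and 16.8 on Day0, 35.6 and 36.1 on Day3 and 40.8 and 39.5 on Day10, and ranks of 51118 and 50090, then 10075 and 9923, then 2326 and 3981. It was not called gained because its Day0 ranks lay just past 50000 and not past 100000. The peak over it was 766 and 1425 bases wide on Day0, 1721 and 1842 on Day3 and 3189 and 2809 on Day10, when it also covered the regions starting at 72909284 and 72910144. The widest peaks of the neighbourhood lay close by, over the region from 72896051 to 72896551. They were 2008 and 1878 bases wide on Day0, 5319 and 4849 on Day3 and 5888 and 5118 on Day10. Their folds were 18.1 and 18.5, then 38.9 and 36.1, then 27.3 and 28.4, highest on Day3 without overlap.

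Past the span given for these genes, other regions differed more between days. The region from 72953935 to 72954435 had folds of 11.7 and 12.7 on Day0, 31.7 and 29.5 on Day3 and 39.8 and 40.4 on Day10, with pileups of 19 and 21, then 56 and 52, then 82 and 86 reads. It moved from ranks 69881 and 65016 to 2978 and 3209, the third strongest peak of the neighbourhood in Day10 replicate 1 and the second in replicate 2. The region from 72918070 to 72918570, at the edge of that span and called gained, had folds of 5.83 and 5.20, then 11.1 and 13.3, then 21.1 and 20.5. A run of 4 gained regions followed between 72975730 and 72994985, with Day10 folds from 17.8 to 22.1. Of these, the region from 72993883 to 72994383 had no peak listed on Day0 or Day3 and folds of 22.1 and 20.5 on Day10. At the outer edge, the gained region from 72811813 to 72812313 was not listed on Day0 and had folds of 8.90 and 8.34 on Day3 and 28.8 and 29.7 on Day10.

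In the stretch between the genes, the strongest gained region ran from 73868170 to 73868670, toward Tns1. Its folds were 6.99 and 6.36 on Day0, 22.8 and 24.5 on Day3 and 34.5 and 37.6 on Day10, and its ranks 105697 and 114168, then 28103 and 25425, then 8575 and 5828. It was 1 of the 2 regions already gained on Day3. It stood in a group of 4 regions from 73863373 to 73870425 that all ranked better on Day10 than on Day0. The neighbour from 73869925 to 73870425 had folds of 8.74 and 8.67 on Day0, 21.7 and 23.9 on Day3 and 36.9 and 37.6 on Day10. The region from 73863373 to 73863873 had 9.32 and 10.4, then 20.6 and 19.5, then 25.4 and 26.0. The fourth, from 73865391 to 73865891, had folds of 14.0 and 19.6, then 30.0 and 27.8, then 28.3 and 27.0, so that its days 3 and 10 overlapped.

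The other region gained on Day3, from 73580365 to 73580865, was not listed on Day0 and had folds of 15.6 and 15.0 on Day3 and 30.7 and 36.7 on Day10. Its ranks on Day3, 46076 and 48360, lay just inside 50000, so this call is close to the limit. The next region along, from 73584492 to 73584992, was kept and had its highest folds on Day3, 37.8 and 37.3, against 25.1 and 24.8 on Day0 and 31.7 and 31.6 on Day10. The folds of this region did not overlap between days, but its pileups did on Day3 and Day10, with 67 and 66 against 65 and 67 reads.

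Over some gained regions no Day0 or Day3 library listed a peak. That from 73052210 to 73052710 had folds of 29.7 and 26.0 on Day10, with pileups of 61 and 55 reads. Just outside its window, every Day0 and Day3 library listed a weak peak, with folds of 4.66 and 4.62 on Day0 and 6.12 and 5.56 on Day3. The Day10 peaks over it, 1111 and 1625 bases wide, were wider than the window. The region from 73667865 to 73668365, also unlisted before Day10, had Day10 folds of 24.0 and 27.9. That from 73066543 to 73067043, likewise unlisted before Day10, had folds of 25.9 and 24.6. In that order their Day10 ranks were 16116 and 24306, 28161 and 20398 and 23705 and 27461. The region from 73436343 to 73436843 was listed weakly throughout, with folds of 5.83 and 6.36 on Day0 and 4.45 and 5.56 on Day3, and stood at 23.0 and 24.2 on Day10.

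Other gained regions took an intermediate step. The region from 73433464 to 73433964 was not listed on Day0, stood at 9.45 and 9.45 on Day3 and at 32.1 and 29.7 on Day10. The region from 73370189 to 73370689 was listed on Day0 in replicate 1 alone, at a fold of 4.08 that is 6 stacked reads. It then had folds of 10.6 and 10.0 on Day3 and 26.4 and 25.6 on Day10. In both regions the Day3 ranks, 73896 and 74590 and 67080 and 70956, lay between 50000 and 100000.

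This stretch also held 3 of the 4 lost regions. The strongest, from 73615891 to 73616391, had folds of 23.9 and 26.6 on Day0 and 7.23 and 7.78 on Day3 and was not listed on Day10. The region from 73277745 to 73278245 had folds of 19.8 and 19.1, then 8.90 and 9.45, then 6.72 and 6.97, and that from 73426787 to 73427287 had 17.5 and 17.3, then 8.34 and 9.45, then 7.20 and 6.97. All 3 were already lower on Day3, with ranks from 74587 to 92949 that did not reach the rule for lost on that day. Of the 4 lost regions of the neighbourhood, 3 were still listed on Day10, with pileups of 13 to 16 reads. On Day3 the 4 had held 12 to 18 reads. A rank of 100000 stood for 11 and 12 reads on Day3 but 20 and 21 on Day10, so similar pileups ranked as intermediate on Day3 and as out on Day10.

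A further 9 regions of the neighbourhood were within 50000 in both Day0 libraries and outside 50000 in both Day10 libraries without meeting the rule for lost. The share of such regions genome-wide was not computed. In the stretch between, the region from 73283230 to 73283730 went from 39.0 and 39.9 on Day0 to 25.6 and 21.7 on Day3 and 14.4 and 12.5 on Day10, without overlap. The region from 73707879 to 73708379 went from 36.1 and 36.4 to 18.3 and 20.0 and 12.5 and 15.3. For comparison, the median fold of the 31 regions kept on all 3 days was 32.0 and 31.8 on Day0 and 27.8 and 28.8 on Day10. Their median pileup was 54 in both Day0 libraries and 57 and 61 on Day10, so their folds and pileups moved in opposite directions.

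Kept regions of the stretch between included some of its strongest. The region from 73274366 to 73274866 had folds of 48.4 and 51.4 on Day0, 33.9 and 37.8 on Day3 and 32.6 and 33.5 on Day10, with ranks of 3819 and 2641, then 11795 and 8344, then 11329 and 11165. By contrast the region from 73324411 to 73324911 improved in rank from 23845 and 19193 on Day0 to 9524 and 10485 on Day3 and 6796 and 4412 on Day10. The region from 73002565 to 73003065 showed no order by day, with ranks of 8671 and 8553, then 7995 and 13491, then 10590 and 7996.

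At the Tns1 end the region with the best mean rank of the whole neighbourhood, from 74037602 to 74038102, was open on every day. Its folds were 52.4 and 52.0 on Day0, 49.5 and 51.2 on Day3 and 41.7 and 43.7 on Day10, with pileups of 89 and 89, then 88 and 91, then 86 and 93 reads. The Day10 folds were the lowest, but its ranks, 1860 and 2358, then 1280 and 1016, then 1769 and 1281, were better on Day10 than on Day0 and best on Day3. The peak over it was 1444 and 1659 bases wide on Day0, 1692 and 1685 on Day3 and 3245 and 3254 on Day10.

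At the Tns1 end 29 of 43 regions ranked better on Day10 than on Day0 and 10 ranked poorer (all regions 43.9% and 41.2%). These ranks are by any overlapping peak, and some neighbouring regions shared 1 peak on Day10. Examples are the regions starting at 74002162 (poorer) and 74002818 (better), and those starting at 74123328 and 74123899 (both better). The region from 73986647 to 73987147 had folds of 40.2 and 39.9 on Day0, 20.0 and 19.5 on Day3 and 9.11 and 12.5 on Day10. Its Day10 ranks were 109295 and 77229, so that replicate 2 alone kept it from being called lost. The region from 74002162 to 74002662, kept on all days, had folds of 44.9 and 46.2 on Day0 and 43.4 and 41.1 on Day3 and 26.4 and 26.5 on Day10. Its ranks were better on Day3 than on Day0, without overlap, and poorer on Day10. The kept region from 74067825 to 74068325 was already lower on Day3, with folds going from 46.6 and 51.4 to 28.9 and 26.7 and then 23.0 and 21.8. Its pileups met between Day3, with 51 and 47 reads, and Day10, with 47 and 46.

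This end held 5 gained regions. The region from 73969029 to 73969529 was not listed on Day0, stood at 8.34 and 6.67 on Day3 and at 28.8 and 30.7 on Day10. The region from 74040549 to 74041049, 2.95 kb from the strongest one, had folds of 6.41 and 5.78, then 10.0 and 10.0, then 28.8 and 26.5. The region from 74115325 to 74115825 was listed weakly on Day0, with folds of 4.66 and 5.78, not on Day3, and had 25.9 and 26.5 on Day10. The other 2, starting at 74056903 and 74073776, were not listed on Day0 and had Day10 folds of 18.6 to 22.5.

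A pair of regions of this end were gained on Day10 against Day3 but not against Day0, since their Day0 ranks were intermediate. The region from 73967491 to 73967991 had folds of 8.74 and 8.09 on Day0, 5.56 and 5.00 on Day3 and 21.6 and 23.7 on Day10. The region from 74036469 to 74036969 had 12.8 and 12.1, then 4.45 and 4.45, then 20.6 and 17.7, lower in both Day3 libraries than in the others. Another region with its lowest values on Day3, from 74131390 to 74131890, had folds of 14.0 and 12.1, then 8.34 and 9.45, then 30.7 and 31.6. Of the kept regions, that from 74174659 to 74175159 had ranks of 13444 and 9615, then 16503 and 9378, then 20625 and 18652, and that from 73995402 to 73995902 had 12788 and 16378, then 12395 and 15481, then 19616 and 14674.

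**Figure D4:**
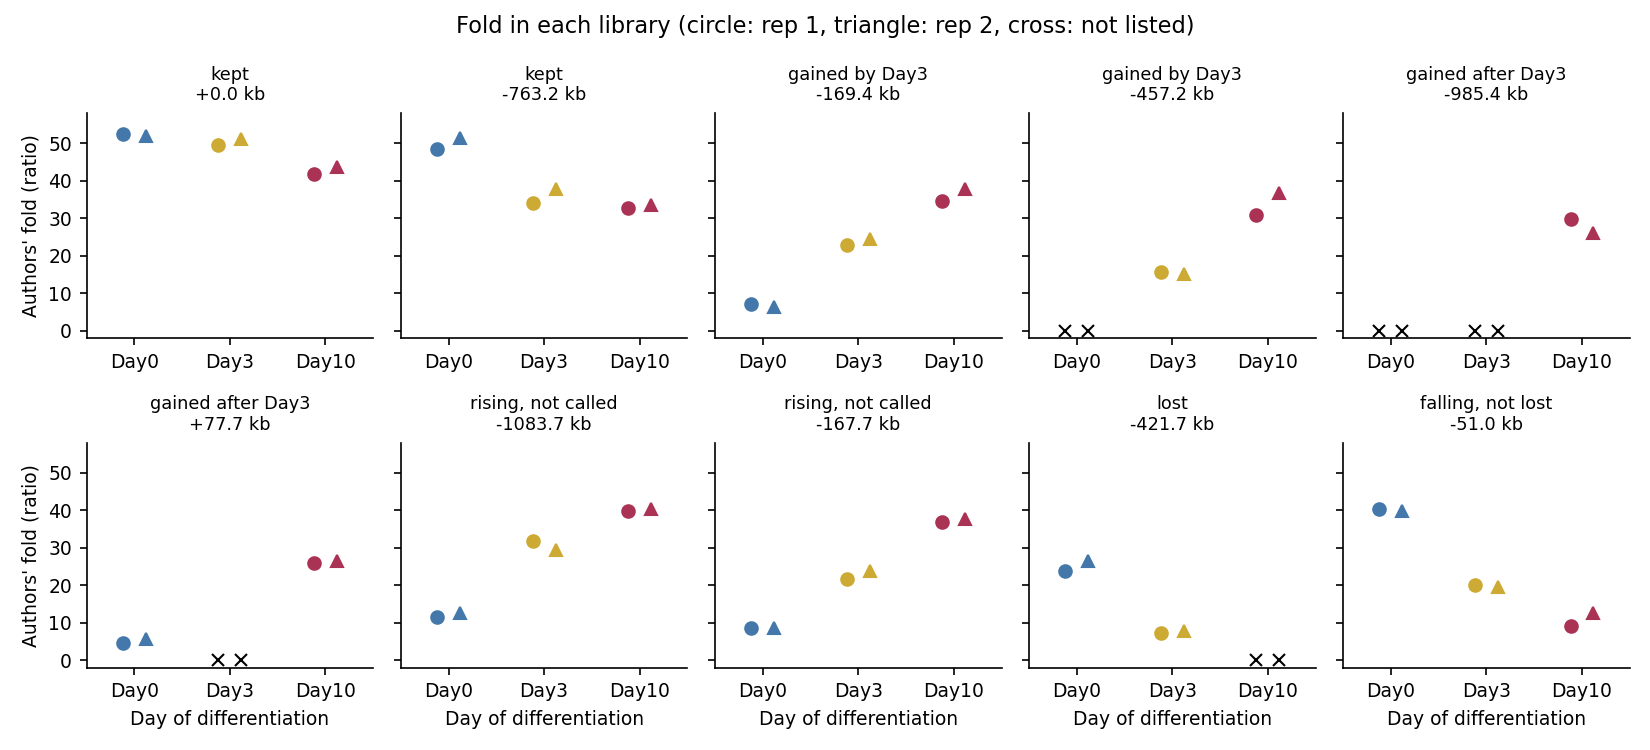
Authors' fold (y axis) by day (x axis) in 10 regions of the neighbourhood, each point 1 library, with crosses at 0 for regions not listed. Panel titles give the class and the distance in kb from the strongest region, 74037602 to 74038102; the gained panels rise to folds of 25.9 to 37.6 on Day10, and the lost region, at 23.9 and 26.6 on Day0, is not listed on Day10.

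The limits of the neighbourhood are positions and not a threshold on a value, and the peaks next to them were as follows. In the Day0 libraries the last summit before it, at 72795164 and 72795168, had folds of 14.6 and 13.3, and the first inside, at 72820154 and 72820166, had 12.8 and 12.7. The last summits inside had folds of 9.90 and 12.7, and the first after it had 6.99 and 8.09. In the Day3 libraries the last summits inside were stronger, with folds of 16.1 and 18.9. In the Day10 libraries all summits next to the limits were weak, with folds from 3.25 to 5.58.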

How the data were processed

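ATAC-seq of ATDC5 cells was sequenced as 75-base single-end reads, per the labels' protocols. The authors deposited 1 peak list per library, called separately and not pooled. The deposited columns hold a score, a fold over background (a ratio), −log10 p and −log10 q, and a summit. Trim Galore and mm10 are named in the submitters' processing notes, without versions. No source used here gives the aligner or peak caller. All lists hold scaffolds MU069434.1 and MU069435.1 of GRCm39, so coordinates are read as GRCm39. The only gene table was GRCm38.p6, so planned gene lists, cell type markers and motifs in regions were not run, and the labelled cell type was not checked.

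Peaks on chromosomes 1 to 19, X and Y were ranked within each library by −log10 p, then fold, then position. Fold solved for whole pileups in 100% of peaks within 0.001. Regions and calls were computed with Python 3.11.15, pandas 2.3.3 and numpy 2.4.6, and tested on simulated data. No test was run. The regions to be named were those gained, lost or kept with the best ranks (up to 12 gained, 12 lost, 8 kept) and those called at Day3. Up to 8 regions called between Day10 and Day3 alone were also to be named. The others were chosen after their values were seen. The members and lists were chosen with earlier results of these data known. Alternatives were other rank limits, no gap between them, narrower windows, a 2-fold difference in fold in place of the second rank limit, the summit rule alone, a longer overlap, peaks with −log10 q of at least 5, and each library left out; ranking of ties was added after seeing the data.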

Additional observations from a re-analysis of the deposited data

How the results depend on the processing

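Counts in the neighbourhood depended on the rule. Counts over all regions moved with the rule as well and are given beside them. For Day10 against Day0, the 36 gained regions became 16 with rank limits of 30000 and 60000 and 57 with no gap between the limits. They ranged from 36 to 42 with 1 library left out. Genome-wide, 8449 gained became 4711 and 14246 under these limits. The 4 lost became 13 with no gap and 9 by fold (within rank 50000 on 1 day, with folds there at least 2 times those of the other day, in place of the second rank limit), and 4 to 5 with 1 library left out. The 6285 lost genome-wide became 13796 with no gap and 9273 by fold. For Day10 against Day3, the 22 gained became 12 with limits of 30000 and 60000, 49 with no gap and 37 by fold. They ranged from 22 to 27 with 1 library left out. In the same order of rules, 6078 gained genome-wide became 3524, 11787 and 10056. The 0 lost became 3 by summit alone, 1 with limits of 30000 and 60000 and 10 with no gap. With 1 library left out they were 0 to 1, 1 being without Day10 replicate 2. Likewise 2489 lost genome-wide became 3616, 1391 and 11072. For Day3 against Day0, the 2 gained became 15 with no gap, 1 with windows of 150 bases either side, 6 by fold and 1 with tied peaks at the poorest rank, the last chosen after seeing the data. They ranged from 2 to 4 with 1 library left out, 4 being without Day0 replicate 1. For the rules with no gap, 150 bases, fold and ties, 427 gained genome-wide became 6290, 428, 859 and 394. The 0 lost became 1 by summit alone, 8 with no gap and 3 by fold, and stayed 0 with 1 library left out. Under those rules 404 lost genome-wide became 1353, 6017 and 2612. The other alternatives stayed within 1.5 times the count. The cause was not tested. Depth is known only through the pileups at listed peaks. No paired analysis was possible because no result comes from a test.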

Other observations

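The longest interval between neighbouring regions kept on all 3 days ran from 73584993 to 73994497, 410 kb between the centres of the flanking kept regions, and was noticed after the values were seen. It held 31 regions, of which 9 were gained and 1 was lost between Day0 and Day10, 22 ranked better and 7 ranked poorer. Its strong peaks numbered 6 and 9 on Day0, 12 in each Day3 library and 22 in both Day10 libraries. The longest interval between neighbouring gained regions ran from 73067044 to 73229379, 162.8 kb between centres, and held 8 regions, of which 6 ranked better on Day10 than on Day0 and 2 ranked poorer. Over all regions 10.7% were gained, 7.99% were lost, 43.9% ranked better and 41.2% ranked poorer between Day0 and Day10.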
